A study of Danio rerio with 6 samples.

Results

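The genes described here encode complement and coagulation factors, the serum proteins that tag and lyse microbes and that form and dissolve blood clots. They were chosen by name, as 43 gene symbols, with earlier results of these data known. Each was taken as the sum of all rows that carry its symbol with or without a numeric suffix. Of the 43 symbols, 42 were in the table of 37685 genes, and c6, a terminal complement component, had no row under that name. RNA was measured by poly-A sequencing of whole zebrafish larvae of the AB strain at 72 hours post fertilization. There were 3 control libraries, from wild-type larvae, and 3 libraries from larvae that received a morpholino against GJB2 as 1-cell embryos. GJB2 encodes a connexin, a subunit of gap junction channels, and its loss causes deafness in humans. Morpholinos are synthetic antisense oligonucleotides that keep an RNA from being translated or spliced. The labels name no control oligonucleotide and give neither the number of larvae pooled per library nor their clutches. The p-values therefore cover the spread among 6 libraries, part of which may be technical. The libraries held between 14582030 and 19743658 counts, and the members together held between 0.206% and 0.255% of them.

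The morpholino is printed here as the labels give it, 5′ to 3′. The capitals mark the 3 bases that are the reverse complement of a start codon. Its match to the zebrafish genome was not tested. The symbol gjb2 heads no row of the table used here, so the knockdown was not checked at the RNA level. With no control oligonucleotide named, the injection itself and the morpholino cannot be told apart.
GJB2 morpholino: taaagtgctccccaactCATcctgt

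Complement is started by recognition proteins (C1q for antibody, mannose-binding lectin for sugars) or by slow turnover of C3 in the alternative pathway. All routes cleave C3 and C5, and C5b then gathers C6 to C9 into a pore. Coagulation starts when tissue factor meets factor VII, proceeds through factors IX, X and prothrombin with factors VIII and V as cofactors, and ends when thrombin turns fibrinogen into fibrin, which plasmin dissolves. Most of these proteins are made by hepatocytes, C1q mainly by macrophages, and von Willebrand factor by endothelium and platelets, whose counterpart in fish is the thrombocyte. In whole larvae, fewer cells of a type and less RNA per cell cannot be told apart.

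Per unit of gene length, fibrinogen, C9 and C3 transcripts were the most abundant members. Mean TPM (the authors' length-scaled measure, summed over the rows of a gene) over the 6 libraries was 202.8 for fgb, 174 for c9, 145 for c3a.1, 126 for fga and 95.6 for f2. At the other end, c1qa, c1qb, c1qc and f9a held at most 9 counts in any library and were too low to test, and f9b stood at a mean of 0.885 TPM. The summed TPM of all members was between 1259.9 and 1497 among controls and between 1431 and 1526 in the morpholino libraries, so the groups overlapped. Control library 1 had the lowest sum, and among the 6 libraries it also had the lowest scaled level for 16 of the 38 members tested.

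**Figure D1:**
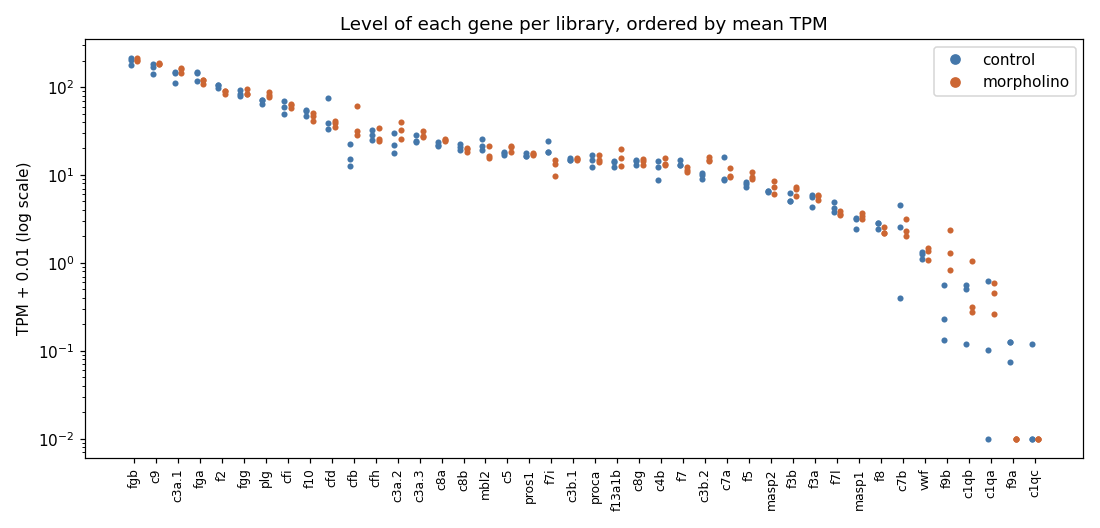
TPM per library (log axis, 0.01 added so that values of 0 can be drawn) of the 42 genes in the table, ordered by mean TPM, with controls in blue and morpholino libraries in orange. Levels span from 202.8 TPM for fgb to 0.018 TPM for c1qc, and most genes have groups that lie close together.

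Between the groups, 4 members rose, 1 fell and 33 of the 38 tested did not pass the test. Those that rose were c3b.2 (a C3 gene), f5 (factor V), f9b (a factor IX gene) and plg (plasminogen), and f7i (a factor VII relative) fell. Counts were compared with edgeR's quasi-likelihood test over all genes, and a gene was called at a Benjamini-Hochberg adjusted p under 0.05. The 5 calls, with f9b among them although it passed the filter on low counts only through the morpholino libraries, were 13.2% of the members tested, against 6.19% of all 22247 genes tested (2.88% higher and 3.31% lower). Because earlier results were known when the members were chosen, these shares are not an independent comparison. The absolute log2 fold change was under 0.5 in 33 of 38 members, and it was 1 or more in 2 (f9b and cfb), against 4.1% of all genes. The median log2 fold change of the members was 0.08, and that of all genes tested was 0.01. All 3 morpholino libraries lay above all controls in 9 members and below them in 5, where 13.7% and 14.1% of all genes tested did so. Only the call of c3b.2 held without any one of the 6 libraries. Leaving out a library also gave fewer calls over the whole table, 272 to 477 genes higher and 307 to 593 lower. In these fits the log2 fold change was between 0.28 and 0.37 for f5 and between 0.24 and 0.30 for plg. It was between 1.78 and 3.03 for f9b and between -0.78 and -0.51 for f7i. The number of members called higher was 1 when control library 1, control library 2, morpholino library 1 or morpholino library 3 was left out, 2 without control library 3 and 4 without morpholino library 2. With rows as deposited, counting only the row of each plain symbol, 3 members were called higher and 2 lower. The suffixed rows c3b.1_1, c3b.2_1 and f3a_2 were also called higher in that fit. Over the table, 8.31% of rows were called, suffixed rows included. DESeq2 called 5 higher and 1 lower, against 6.26% of genes. When a library was left out, the fall of f7i kept its call only without morpholino library 3.

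**Figure D2:**
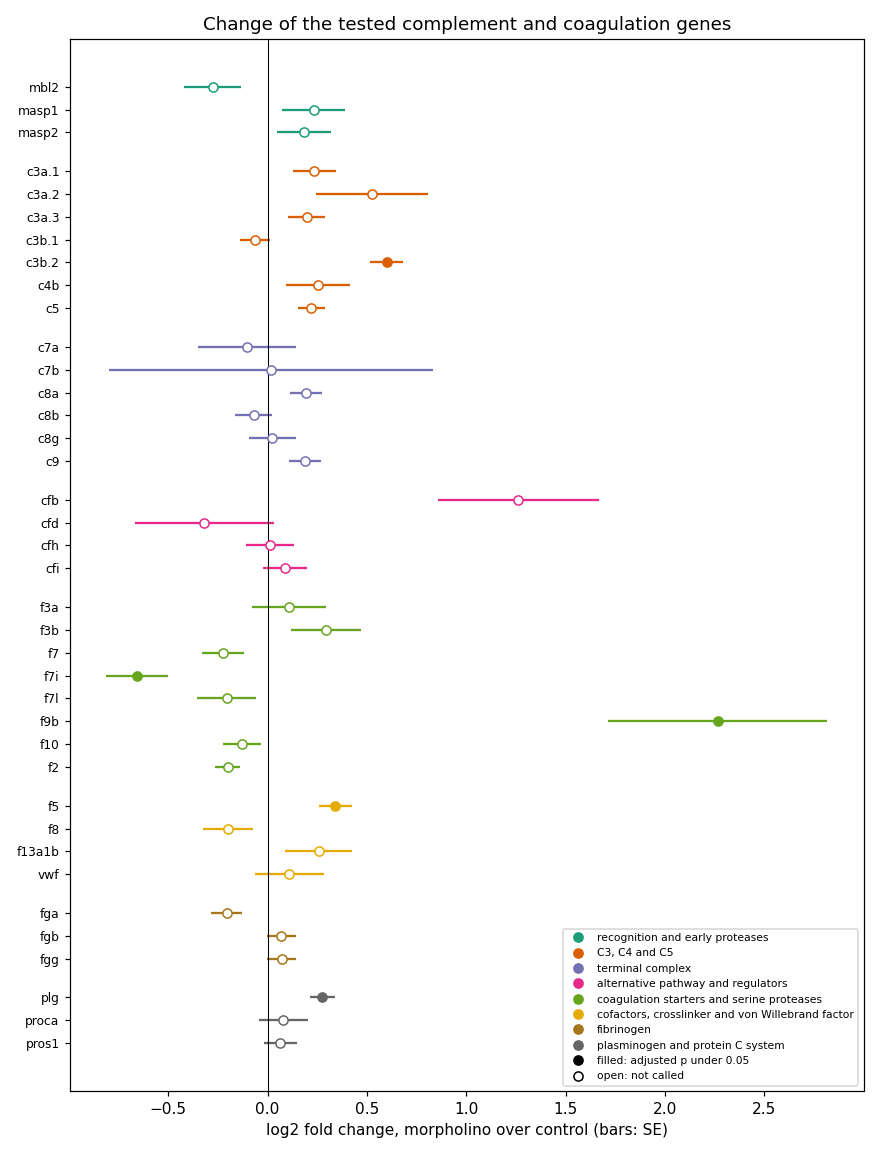
Log2 fold change of morpholino over control (x axis, bars are SE) of the 38 tested genes, grouped and coloured by role, with filled points for called genes. The 5 filled points are c3b.2, f7i, f9b, f5 and plg, and the open point at 1.26 is cfb.

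Among the recognition proteins and their proteases, none of 3 tested genes passed. mbl2, the mannose-binding lectin gene on chromosome 2 (37887283 to 37889128, minus strand, GRCz11), stood at 12.3, 13.3 and 15.7 CPM (counts scaled to library size with TMM factors, with no length correction) in controls 1 to 3 and at 9.78, 11.1 and 13.3 in morpholino libraries 1 to 3. The groups overlapped, and its log2 fold change was -0.28 ± 0.14 (SE, adjusted p = 0.293). The genes of the lectin-associated proteases, masp1 and masp2, had log2 fold changes of 0.23 ± 0.16 and 0.18 ± 0.14 (adjusted p of 0.440 and 0.482). The 3 C1q chain genes lie side by side on chromosome 21. The counts of c1qa were 6, 1 and 0 in controls 1 to 3 against 3, 6 and 6 in morpholino libraries 1 to 3. c1qb held 4, 1 and 5 against 3, 3 and 9, and c1qc held 1 count in control library 3 and 0 elsewhere. At this depth no difference in C1q transcripts was detectable.

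Of the C3, C4 and C5 genes, 1 of 7 rose and 6 did not pass. c3b.2 (chromosome 22, 26129245 to 26175237, minus strand) stood at 39.0, 32.7 and 35.9 CPM in the controls, and at 56.2, 55.6 and 51.2 in the morpholino libraries. Every morpholino library was above every control, and the group means were 35.9 ± 3.12 and 54.3 ± 2.73 (SD, n = 3 each). The log2 fold change was 0.60 ± 0.08 (1.52-fold, adjusted p = 0.00245), with adjusted p between 0.00456 and 0.0129 when any one library was left out. Its neighbour c3b.1 lies on the same strand, with a gap of 4105 bases between the genes. c3b.1 stood at 62.7, 58.3 and 58.1 CPM in the controls, and at 54.1, 61.5 and 55.8 in the morpholino libraries. The groups overlapped, and its log2 fold change was -0.06 ± 0.07 (adjusted p = 0.687).

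The difference in c3b.2 lay in its row with a suffix, and both c3b genes had their counts split between 2 rows. The row with the plain symbol c3b.2 held 23.0 ± 2.85 CPM among controls and 22.5 ± 2.48 among morpholino libraries (log2 fold change -0.03, adjusted p = 0.915 over rows as deposited). The row c3b.2_1 held 14.3, 13.02 and 11.2 CPM among controls and 35.1, 30.2 and 30.1 in the morpholino libraries, a log2 fold change of 1.31 ± 0.11 (adjusted p = 1.7e-04). The suffixed row thus took between 31.3% and 39.8% of the counts of c3b.2 in the controls and between 54.3% and 62.4% in the morpholino libraries. For c3b.1 the plain row fell by 0.52 ± 0.09 on the log2 scale (adjusted p = 0.00605) while c3b.1_1 rose by 1.00 ± 0.15 (adjusted p = 0.00456). The share of c3b.1_1 was between 17.3% and 24.2% in the controls and between 39.4% and 45.4% in the morpholino libraries. In both genes the shares of the groups did not overlap. When both c3b genes with all their rows were summed into 1 feature, an alternative chosen after seeing the data, the log2 fold change was 0.22 ± 0.07 and was not called (adjusted p = 0.0795). Reads of such near copies can be shared out between rows, so the level of c3b.2 alone is uncertain to that extent. Whether reads moved between rows was not tested.

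**Figure D3:**
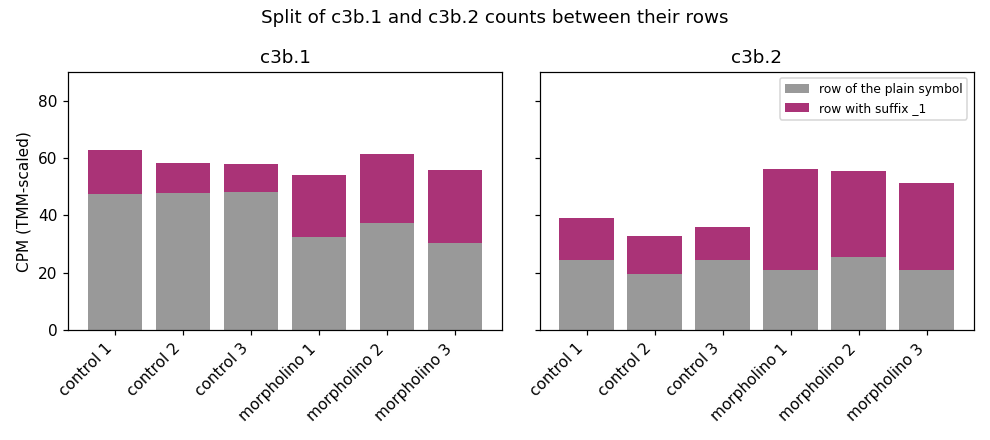
CPM of c3b.1 and c3b.2 in each library, stacked by the row of the plain symbol (grey) and the row with the suffix _1 (purple). The purple part is larger in the 3 morpholino libraries than in the 3 controls in both genes, and the whole bar is taller in the morpholino libraries for c3b.2.

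The 3 c3a members on chromosome 1 had higher TPM sums than the c3b genes, and none of the 3 passed. c3a.1 (56130222 to 56176975, minus strand) stood at 354, 446 and 458 CPM in the controls, and at 498, 538 and 445 in the morpholino libraries, so that only morpholino libraries 1 and 2 exceeded all controls. Its log2 fold change was 0.24 ± 0.11 (adjusted p = 0.241), that of c3a.2 was 0.52 ± 0.28 (adjusted p = 0.383) and that of c3a.3 was 0.20 ± 0.09 (adjusted p = 0.262). These copies may also share reads. Summed with the neighbours c3a.4, c3a.6 and LOC100331492, they had a log2 fold change of 0.26 ± 0.11 (adjusted p = 0.186). Of these neighbours, which are not members, LOC100331492 rose on its own at a low level, from 1.76 ± 0.324 to 3.72 ± 0.805 CPM (log2 fold change 1.07 ± 0.25, adjusted p = 0.0316). c4b, a C4 gene, was at 0.26 ± 0.16 (adjusted p = 0.419). c5, which encodes the protein whose cleavage starts the pore, stood at 56.1, 57.8 and 56.4 CPM against 67.2, 62.7 and 68.5. Its groups did not overlap, but it missed the threshold (log2 fold change 0.22 ± 0.07, adjusted p = 0.0804).

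No gene of the terminal complex passed among 6 tested. c9, which forms the ring of the pore, stood at 190, 218 and 238.2 CPM in the controls, and at 244, 253 and 238.6 in the morpholino libraries. The lowest morpholino library lay just above the highest control, and the log2 fold change was 0.19 ± 0.08 (adjusted p = 0.213). c8a, the gene of the C8 alpha chain, stood at 26.8, 28.3 and 26.3 CPM in the controls, and at 29.6, 32.9 and 30.5 in the morpholino libraries (0.19 ± 0.08, adjusted p = 0.197). c8b, whose gene lies 298 bases from c8a on the opposite strand, was at -0.07 ± 0.09 (adjusted p = 0.725), and c8g was at 0.02 ± 0.12 (adjusted p = 0.937). c7a and c7b varied too much to compare, since control library 3 held 27.4 CPM of c7a against 16.0 and 15.2 in the other controls, and c7b ranged from 0.692 to 7.90 CPM within the controls. The genes c6.1 and c6.2 in the table were not members by name and were looked up after the data were seen. Their log2 fold changes were 0.78 ± 0.35 and -0.55 ± 0.65, and neither passed (adjusted p of 0.231 and 0.698).

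In the alternative pathway and among its regulators, cfb had the largest difference but was not called, and none of 4 genes passed. cfb (chromosome 21, 27416291 to 27431397, plus strand) encodes factor B, the protease of the alternative C3 convertase. It stood at 23.5, 33.2 and 18.6 CPM in the controls, and at 89.3, 44.7 and 46.7 in the morpholino libraries. The groups did not overlap, but morpholino library 1 stood well above the other two. The log2 fold change was 1.26 ± 0.41 (2.40-fold, adjusted p = 0.182), and DESeq2 called it (adjusted p = 0.0357). Its log2 fold change was between 0.86 and 1.51 when any one library was left out, and edgeR called it in none of these fits. cfi, the gene of factor I, which cuts C3b, stood at 57.0, 66.6 and 78.2 CPM against 73.0, 75.6 and 65.5 (0.09 ± 0.11, adjusted p = 0.714). cfh, the gene of its cofactor factor H, was at 0.01 ± 0.12 (adjusted p = 0.967). cfd, the gene of the protease that activates factor B, was at -0.32 ± 0.35 (adjusted p = 0.678), and control library 2 stood apart at 41.4 CPM against 19.2 to 24.5 CPM in the other 5 libraries. That excess lay in 1 row, which held 356 counts in control library 2 and between 9 and 27 elsewhere, and without that library the log2 fold change of cfd was 0.12.

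Among the coagulation starters and proteases, f9b rose, f7i fell and 6 of 8 tested genes did not pass. f7i (chromosome 1, 127237 to 134081, plus strand), annotated as coagulation factor VIIi, stood at 19.7, 19.1 and 25.2 CPM in the controls, and at 14.1, 10.8 and 15.8 in the morpholino libraries. Every morpholino library was below every control, and the fall was 0.66 ± 0.16 on the log2 scale (adjusted p = 0.0368). The call was lost without any control library or without morpholino library 1 or 2, with adjusted p up to 0.117. f7i lies in a row of 4 coagulation genes on the plus strand, f7l, f7, f7i and f10, with gaps of 821, 1990 and 1938 bases. The log2 fold changes of f7l, f7 and f10 were -0.21 ± 0.15, -0.22 ± 0.10 and -0.13 ± 0.09, and none passed (adjusted p of 0.471, 0.243 and 0.483). All morpholino libraries lay below all controls for f7l and f7, and the groups overlapped for f10. The 3 f7 genes were also summed into 1 feature, an alternative chosen after seeing the data. The sum fell by 0.41 ± 0.10 (adjusted p = 0.0337), from 41.3, 40.9 and 49.9 CPM to 33.4, 30.1 and 35.9. It contains f7i, which was called on its own, so it is not separate support for a fall of f7 or f7l.

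f9b (chromosome 10, 26747795 to 26757486, plus strand) rose from a very low level. Control libraries 1 to 3 held 2, 4 and 10 counts, against 46, 18 and 22 in morpholino libraries 1 to 3. The groups did not overlap, with morpholino library 1 the highest, and the log2 fold change was 2.27 ± 0.55 (adjusted p = 0.0350). It was the only tested member that reached the filter on low counts through 1 group alone, the morpholino libraries, so a difference was built into its being tested. Among the fits that left out a library, the call held only without control library 3 or morpholino library 2 (adjusted p up to 0.149 in the others), and it was lost in limma with voom weights (adjusted p = 0.0574). The other factor IX gene, f9a, held 1, 2 and 2 counts in the controls and 0 in each morpholino library.

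f2 encodes prothrombin and was the most abundant coagulation protease per unit of length. It stood at 132, 131 and 119 CPM in the controls, and at 112, 109.9 and 111 in the morpholino libraries. The groups did not overlap, but the log2 fold change of -0.20 ± 0.06 missed the threshold (adjusted p = 0.0884). f3a and f3b encode tissue factor, and their log2 fold changes were 0.11 ± 0.19 and 0.29 ± 0.18 (adjusted p of 0.793 and 0.371). The counts of f3a were also split between rows. Its row f3a_2 rose from 1.51 ± 0.491 to 3.73 ± 0.458 CPM (log2 fold change 1.31 ± 0.28, adjusted p = 0.0183), and its plain row was at -1.34 ± 0.39 (adjusted p = 0.0614).

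Of the cofactors, the fibrin crosslinker and von Willebrand factor, f5 rose and 3 did not pass. f5 (chromosome 9, 34127005 to 34147996, plus strand) stood at 29.6, 30.9 and 32.0 CPM in the controls, and at 42.5, 37.2 and 37.5 in the morpholino libraries. The groups did not overlap, and the log2 fold change was 0.34 ± 0.08 (1.27-fold, adjusted p = 0.0345). Its call held only without morpholino library 2 among the fits that left out a library, with adjusted p up to 0.134. f8, the cofactor of factor IX, stood at a log2 fold change of -0.20 ± 0.13 (adjusted p = 0.397). f13a1b, the gene of a factor XIII A chain, which crosslinks fibrin, stood at 20.1, 22.5 and 22.0 CPM in the controls, and at 19.8, 32.7 and 24.7 in the morpholino libraries, so that morpholino library 2 was highest and library 1 was below all controls (0.26 ± 0.17, adjusted p = 0.438). vwf was at 0.11 ± 0.17 (adjusted p = 0.771).

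None of the 3 fibrinogen chain genes passed. fga, the alpha chain gene, stood at 176, 206 and 209 CPM in the controls, and at 172, 165 and 175.5 in the morpholino libraries. All morpholino libraries lay below all controls, by a narrow margin for control library 1 (175.6 CPM) and morpholino library 3, and the log2 fold change was -0.21 ± 0.08 (adjusted p = 0.144). fgb, the beta chain gene, which lies 6669 bases from fga on the opposite strand, stood at 196, 217 and 224 CPM against 226, 229.8 and 211. Its groups overlapped (0.07 ± 0.07, adjusted p = 0.625), and fgg, the gamma chain gene, was likewise at 0.07 ± 0.07 (adjusted p = 0.635).

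In the fibrinolytic and protein C systems, plg rose and 2 genes did not pass. plg (chromosome 20, 42688488 to 42702819, minus strand) stood at 129, 139.5 and 136 CPM in the controls, and at 170.1, 161 and 158 in the morpholino libraries. Every morpholino library was above every control, and the log2 fold change was 0.27 ± 0.06 (1.21-fold, adjusted p = 0.0280). As for f5, its call held only without morpholino library 2 among the fits that left out a library, with adjusted p up to 0.113. proca, the gene of protein C, which inactivates factors V and VIII, was at 0.08 ± 0.12 (adjusted p = 0.765), and pros1, the gene of its cofactor protein S, at 0.06 ± 0.08 (adjusted p = 0.715).

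**Figure D4:**
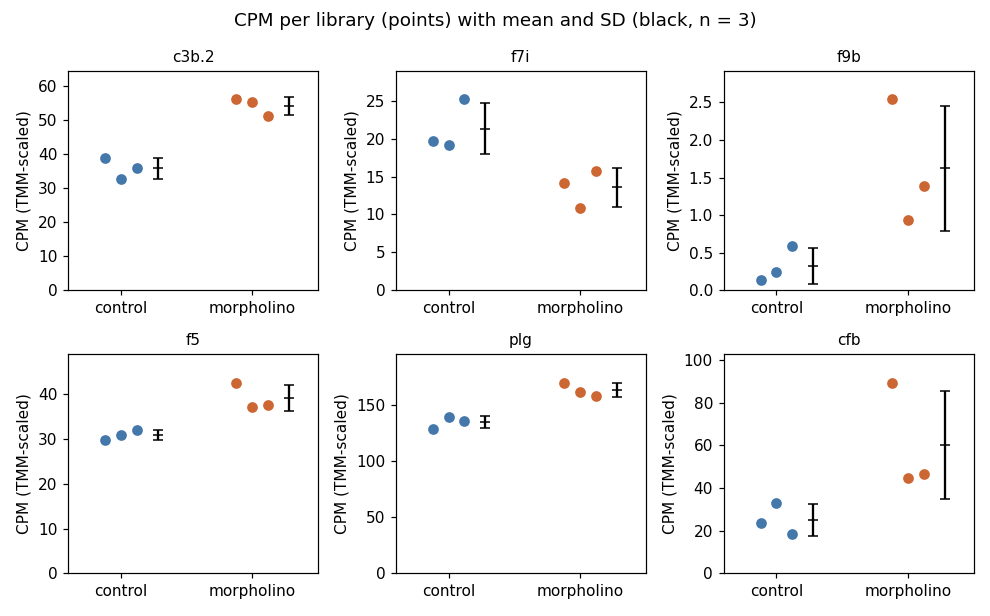
CPM in each library (points) with mean and SD (black, n = 3) for the 5 called genes and for cfb, each panel on its own linear axis from 0. In every panel the groups do not overlap, and for cfb and f9b morpholino library 1 is the highest point (89.3 and 2.54 CPM).

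Other genes of both pathways, none of them among the 43, rose in a few cases and none fell past the threshold. Of 23 related complement genes tested, 2 rose, with a median log2 fold change of 0.11. cfhl1, a factor H-like gene, rose by 1.00 ± 0.23 on the log2 scale, from 2.54 ± 0.781 to 5.12 ± 0.368 CPM (adjusted p = 0.0281), and itgb2, the beta chain of leukocyte complement receptors, by 0.44 ± 0.11 (adjusted p = 0.0374). Of 30 related haemostasis genes tested, 4 rose, with a median of 0.18. The calls with the smallest adjusted p were a2ml, a gene of the alpha-2-macroglobulin family of protease inhibitors, at 0.72 ± 0.07 (adjusted p = 3.6e-04), and serpina10a, a relative of the protein Z-dependent protease inhibitor, at 0.48 ± 0.07 (adjusted p = 0.00369). habp2, a serine protease gene, and plaub, a urokinase gene, which encodes an activator of plasminogen, rose by 0.47 ± 0.11 and 0.49 ± 0.13 (adjusted p of 0.0270 and 0.0473). The calls of a2ml and serpina10a held without any one library, whereas those of itgb2 and plaub were lost without each of the 6 libraries in turn, and those of cfhl1 and habp2 in 5 of the 6 fits.

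Acute phase genes were called in both directions. Of 21 tested, 2 rose and 3 fell, with a median log2 fold change of -0.10. cebpd, a transcription factor gene of the acute phase response, fell from 212 ± 7.45 to 134 ± 2.28 CPM (-0.66 ± 0.06, adjusted p = 2.3e-04), nfkbiaa, an NF-kB inhibitor gene, fell by 0.54 ± 0.10 and socs3a, an inhibitor of cytokine signalling, by 0.67 ± 0.15. stat3, the transcription factor gene of interleukin 6 signalling, rose by 0.36 ± 0.08 (adjusted p = 0.0200) and il11a, a cytokine gene, by 1.44 ± 0.37 (adjusted p = 0.0429). The genes of the classical acute phase proteins serum amyloid A (saa) and C-reactive protein did not pass, with saa at -0.02 ± 0.28 and 5 crp genes between -1.01 and -0.01. Of the tested genes beside cebpd, 15 had a log2 fold change below 0 and 5 above. The summed level of the list was between 652 and 694 CPM in the controls and between 551 and 583 in the morpholino libraries. Without cebpd, the sum of the tested genes was 439.4 to 480.5 against 414.4 to 451.1, so the groups overlapped.

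Markers of the cell types that make these proteins were compared beside them. Of 29 hepatocyte markers tested, 3 rose and 2 fell, with a median log2 fold change of 0.07, and their summed level was between 13758 and 14638 CPM in the controls and between 15036 and 15543 in the morpholino libraries. Of these, tat and serpina1 rose by 0.75 and 0.30, and rbp4l and ahsg2 fell by 0.48 and 0.61, while fabp10a, the standard liver marker of zebrafish larvae, was at 0.14 ± 0.14 (adjusted p = 0.636). Of 21 macrophage markers, 6 rose and none fell, with a summed level between 1297 and 1442 CPM against 1645 to 1799.5. apoeb, which also rose and is expressed by other cell types, held 86.6% of that sum, and without it the sum was between 162 and 178 CPM against 222 to 258. By adjusted p, the calls were led by ctss2.2, mpeg1.2, grna.2 and ctss2.1. Of 9 genes listed as neutrophil markers, mpx and cpa5 rose and none fell, with a summed level between 865 and 1077 CPM against 1321 to 1708. cpa5 held 86.9% of that sum, and without it the sum was between 148.5 and 168 CPM in the controls against 138 to 185, so the groups overlapped. Of the other 8 markers, 4 had a log2 fold change above 0 and 4 below. In the controls cpa5 averaged 789 CPM and mpx 22.8, and whether cpa5 marks neutrophils in these larvae was not tested. Of 16 endothelial markers, lyve1b fell and none rose, with a summed level between 240.1 and 256 CPM against 236 to 249, and none of 8 thrombocyte markers passed, with a summed level between 35.2 and 36.7 CPM against 37.7 to 43.1. Of these, itgb3a and itgb3b, integrin genes with the highest levels in the list, were at 0.23 ± 0.12 and 0.30 ± 0.17 (adjusted p of 0.290 and 0.340). Among the tested thrombocyte markers, itgb3a held 45.8% of the sum. Without it the sum was between 18.5 and 20.13 CPM in the controls against 20.1 to 22.1, so the groups overlapped. Among the marker and acute phase genes named, the calls of cebpd, rbp4l, ctss2.2, mpeg1.2, grna.2 and ctss2.1 held without any one library. Those of nfkbiaa, socs3a, stat3, il11a, tat, serpina1, ahsg2, apoeb, mpx, cpa5 and lyve1b were lost without at least 1 library. Of these called genes, grna.2 and il11a reached the filter on low counts (0.597 CPM) in every library of the morpholino group only. lyve1b reached it in every library of the control group only. For grna.2 the controls stood at 0.277, 0.663 and 0.475 CPM, and the morpholino libraries at 2.43, 3.49 and 2.39. Much as for f9b, a difference was thus built into the testing of grna.2 and lyve1b. This does not hold for il11a, which also reached the filter in control libraries 2 and 3 (0.663 and 1.37 CPM). No listed marker in the table was at 0 in all libraries. The part of these cell types in the changes of the members was not tested.

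**Figure D5:**
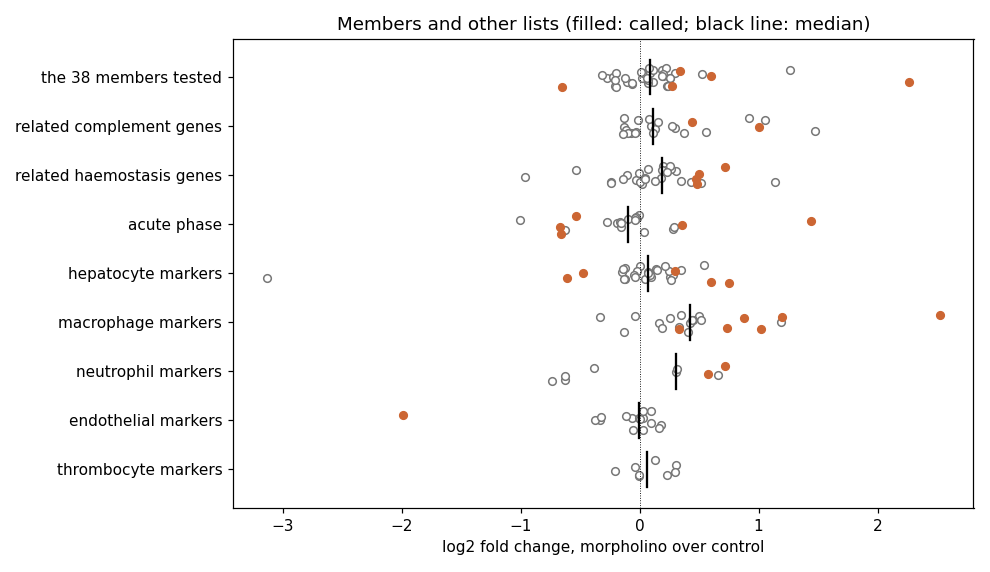
Log2 fold change of each tested gene (points, filled where called) among the members and in 8 other lists, with the median of each as a black line. The macrophage list has the highest median (0.42) with 6 filled points, all above 0, whereas the members have a median of 0.08 with 4 filled points above 0 and 1 below.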

How the data were processed

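RNA-seq of 3 control and 3 morpholino libraries was analysed from 1 table of 53709 rows. Read counts per row are whole numbers, not normalized, as deposited by the authors, and TPM and FPKM values stand beside them as deposited by the authors, named so per the file headers (FPKM was not used). HISAT2, RSEM and StringTie 1.3.1, with GRCz11 as the build, are named in the submitters' processing notes, without their roles. Of the rows, 16024 carry another row's symbol with a numeric suffix, and 14 of the 42 members have such rows; all rows of a gene were summed, which the gene set's rule asks for. The sources used here do not state whether counting kept strand. The table's numeric gene IDs matched RefSeq (GRCz12tu, used for names and chromosome numbers only) for 6 of 42 members, so genes are given by symbol.

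The test was edgeR 4.0.16 under R 4.3.3 on the summed counts (filterByExpr with min.count 10 and min.total.count 15, TMM, robust quasi-likelihood fit, no covariate, Benjamini-Hochberg adjustment over all genes). The approach was tried on simulated data in which only genes of higher count changed, by larger steps than those of f5 and plg. It was therefore not tested for such small changes or for counts as low as those of f9b. Levels are TMM-scaled CPM, and SE is the log2 fold change divided by the root of its F statistic. Values in every library are given for each called member, for members whose call differed with rows as deposited, and for the highest (mean TPM) and smallest-p member of each role. Of each other list, up to 4 called genes with the smallest adjusted p are named. One of these genes is not reported here. saa, the crp genes, fabp10a, il11a, ahsg2 and the genes named as neighbours were added after their values were seen. The members and lists were chosen with earlier results of these data known. Alternatives were rows as deposited, other size factors, DESeq2 1.42.0, other filters, a replicate block, each library left out, and, added after seeing the data, limma 3.58.1 with voom weights and summed neighbouring copies. Promoter sequence was not used here.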

Additional observations from a re-analysis of the deposited data

How the results depend on the processing

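The number of complement and coagulation genes called higher was 3 to 5 under other filters, size factors, rows as deposited, the replicate block, DESeq2 and limma with voom weights, against 4, and 1 to 4 when a library was left out. The number called lower was 1 in these settings except with rows as deposited, where it was 2 (c3b.1 and f7i), and 0 to 1 when a library was left out. For rows as deposited, these numbers and the median given below count only the row of each member's plain symbol. Rows as deposited gave 930 rows higher and 1119 lower over the whole table, against 641 and 737 genes. Leaving out a library gave 272 to 477 genes higher and 307 to 593 lower over the whole table, and 8 to 13 other list genes higher (19 with all libraries) and 3 to 5 lower (6 with all). The median log2 fold change of the members was between 0.05 and 0.13 in every setting.

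Of the members, the plain rows of c3b.2 (-0.029), c7b (-1.15) and f3a (-1.34) were negative with rows as deposited, and none of these rows was called. In the same fit the suffixed rows c3b.2_1 (1.31) and f3a_2 (1.31) were positive and called. The row c7b_1 (0.38) was positive and not called. Leaving out a library turned the sign of 8 members that were never called. The log2 fold changes without a library were between -0.26 and 0.22 for c7a, -0.48 and 0.77 for c7b, -0.020 and 0.10 for c8g, -0.52 and 0.12 for cfd, -0.13 and 0.10 for cfh, -0.023 and 0.21 for cfi, -0.027 and 0.21 for f3a and -0.022 and 0.19 for proca. The cause of these changes was not tested. The replicate numbers gave no pairing by the data (correlation of same-numbered deviations from the group means between -0.04 and 0.06 across genes). With the replicate block 4 members rose and 1 fell. Counts of at most 9 per library, as for the C1q genes and f9a, limit what could be detected.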

Other observations

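hnf4a, the gene of a nuclear receptor of hepatocytes, was looked up after its values were seen. Its level was 10.2, 4.04 and 0.534 CPM in control libraries 1 to 3 and 0.718, 0.365 and 0.567 in morpholino libraries 1 to 3. Control libraries 1 and 2 stood above the other 4, which overlapped, and its log2 fold change of -3.14 ± 1.18 did not pass edgeR's test (adjusted p = 0.231).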
